A study of Gallus gallus with 24 samples.

Results

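The genes described here encode the proteins of oxidative phosphorylation and were measured in the chick retina during form deprivation. They were chosen by name: every probe set with a single gene symbol beginning with NDUFA, NDUFB, NDUFC, NDUFS, NDUFV, SDHA to SDHD, UQCR, COX4 to COX8 or ATP5. The rule found 78 of the 13009 genes with a probe set of their own, on 141 of 38439 probe sets, and each gene was represented by its probe set of highest mean signal. Of these, 77 genes were bright enough to be tested among 26913 probe sets. The tested genes comprised 33 of complex I, 2 of complex II, 8 of complex III, 7 of complex IV, 13 of complex V, and 14 assembly factors and related proteins. COX7B, a small subunit of complex IV, was not tested, with means of 8.92 ± 4.15 (SD, n = 6) to 18.3 ± 4.29 in the 4 groups, all below the 22.8 that marks the top of the array background.

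Oxidative phosphorylation makes ATP in the inner membrane of mitochondria. Complexes I and II feed electrons from NADH and succinate into the chain, complexes III and IV pass them on to oxygen while protons are pumped, and complex V, the ATP synthase, uses the returning protons to make ATP. The retina is among the tissues with the highest demand for oxygen and ATP, and its photoreceptors pack mitochondria into their inner segments.

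RNA came from white Leghorn chicks kept under 12 h of light and 12 h of darkness. At 1 week of age, at light onset and under ether, each bird had a translucent white plastic goggle glued over 1 eye, on alternating sides, which blurs the image and makes the covered eye grow too long. The goggle was worn for 6 h or for 3 d by different chicks, and 6 chicks of each time were arrayed. The 4 groups of 6 eyes were thus open and goggled eyes at each time, and RNA of each eye was hybridised to an Affymetrix chicken array. Each open eye was the uncovered fellow eye of a goggled, anaesthetised chick, so no group came from an untreated bird. The tissue was retina with its pigment epithelium, dissected together, so fewer cells of a type and less RNA per cell cannot be told apart. Between 6 h and 3 d, age, handling, time since anaesthesia and time in the goggle changed together. With goggles put on at light onset, time of day went with them too. None of these can be told apart. Eyes of equal number were taken as the eyes of 1 chick, which the titles do not state. Over all tested probe sets, the goggled eye of equal number was the closest match of every open eye except 3 d open replicate 2, whose closest match was goggled replicate 3.

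The values were linear signal intensities scaled so that the trimmed mean of each array was the same, 150.03. Median signals averaged 40.4 ± 3.41 (SD, n = 6) for the open 6 h group, 39.7 ± 3.04 for the goggled 6 h group, 35.6 ± 2.68 for the open 3 d group and 32.5 ± 2.24 for the goggled 3 d group. RNA integrity, read from the actin control as 3′ over 5′ signal, ranged from 2.40 to 5.05, and from the GAPDH control from 0.89 to 1.04. The highest actin ratios were 5.05 in 3 d goggled replicate 4, with a GAPDH ratio of 0.94, and 5.01 in 6 h open replicate 1. Rod and cone markers were present on every array, with summed signals of 32514 to 52394 over the 19 of 27 listed markers on the array. Summed choroid, sclera and vessel markers stood apart in 3 d goggled replicate 3, at 6181 against a mean of 704 for the other 5, with the highest blood marker signal too, in 3 d open replicate 2, at 3272, and in 6 h open replicate 5, at 3045. Summed striated muscle markers reached 2511 in 6 h goggled replicate 6 against a mean of 471 in the other 5.

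**Figure D1:**
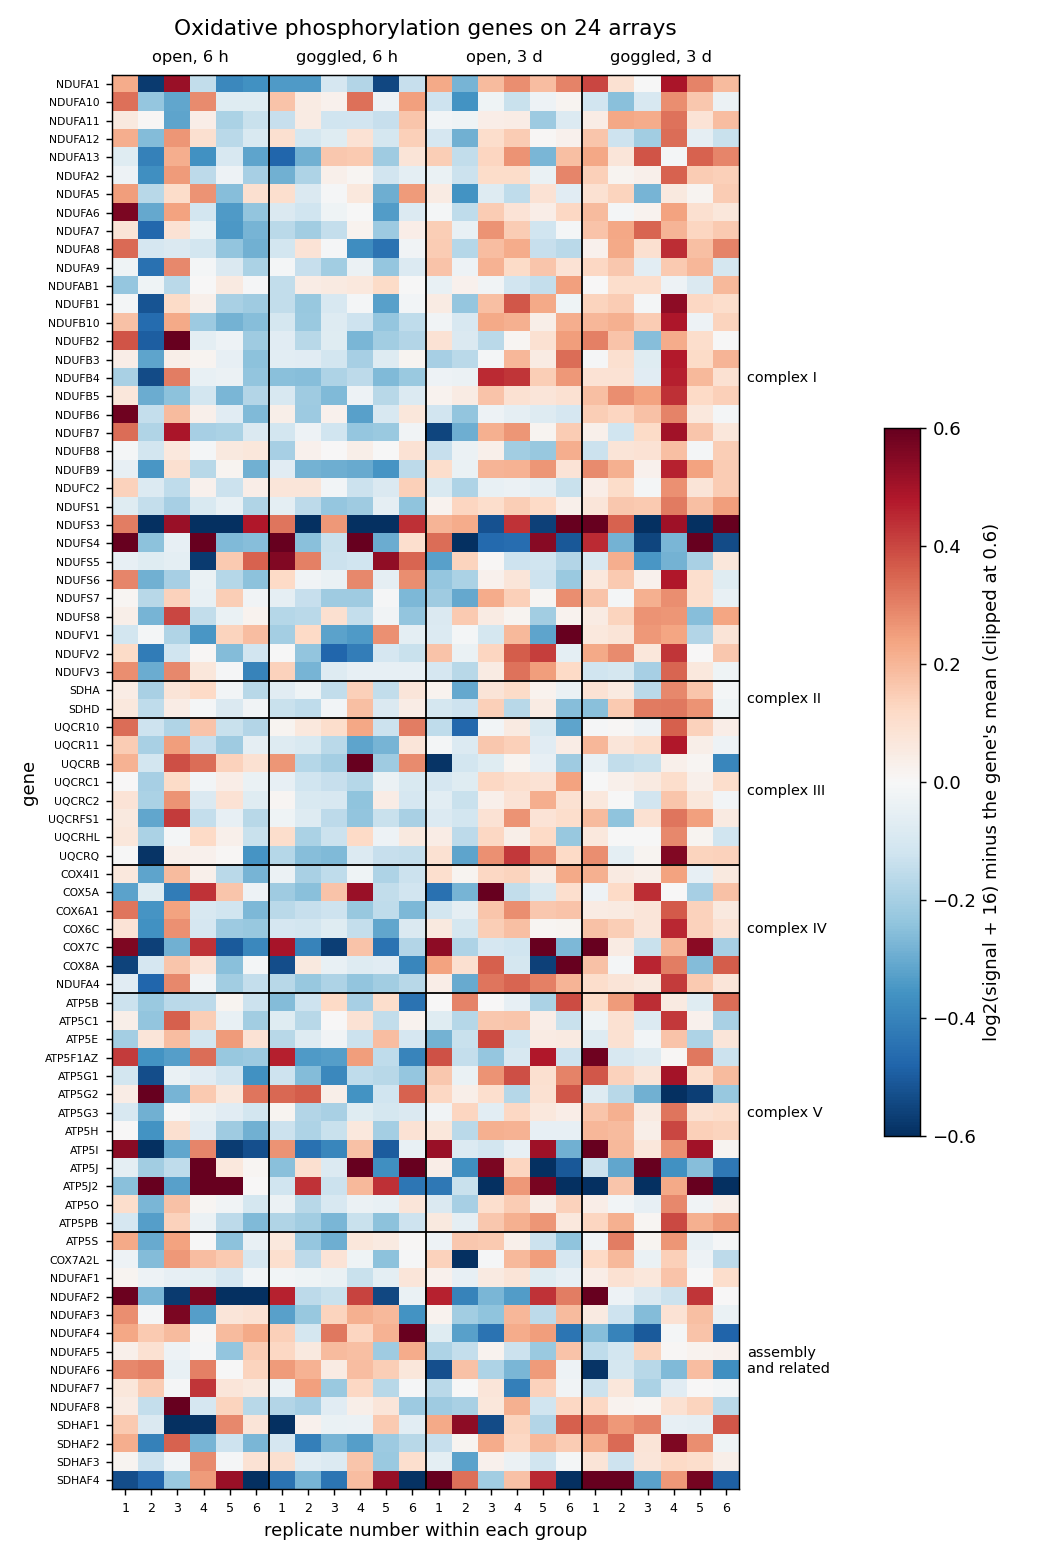
Each cell is log2(signal + 16) of 1 of the 77 tested genes (vertical axis, by complex) on 1 of 24 arrays (horizontal axis, 6 replicates per group), minus the mean of that gene over all arrays, with the colour scale clipped at 0.6. Warmer colours run through most of complexes I, III, IV and V at 3 d, the column of 3 d goggled replicate 4 is warm nearly throughout, and rows such as NDUFS4, COX7C and ATP5I alternate between chicks in the same way in both eyes.

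Oxidative phosphorylation genes were higher at 3 d than at 6 h in goggled eyes. Of the 77 genes, 64 had the higher mean at 3 d and the median log2 difference was 0.21, whereas the median over all tested probe sets was -0.08. A gene was called where the p-value of the limma fit, adjusted over all 26913 probe sets, was under 0.05. By that rule 15 genes rose, against a background of 4.13% of all tested probe sets called higher, and 2 fell, against 8.56% called lower. The background depends on signal. Of the 6026 tested probe sets at least as bright as the lower quartile of these genes, 11.1% were called higher and 5.06% lower. Their median difference was 0.06, and 60.7% of them had the higher mean at 3 d, against 37.8% of all tested probe sets. Over all probe sets, 32.5% of the calls in goggled eyes were higher, a share that became 49.5% after quantile normalization and 67.6% after median centring. Centring moved the median of all probe sets from -0.08 to 0.03 and that of the 77 genes from 0.21 to 0.32. Quantile normalization moved them to 0.01 and 0.17, with 60 of the 77 genes higher.

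Complex I held 9 of the 15 genes that rose, and 29 of its 33 genes were higher at 3 d in goggled eyes (median 0.23). The electron-carrying core of the complex was represented among them by NDUFS1, an iron-sulphur subunit of the peripheral arm. Its signal had a lowest, median and highest value of 568, 591 and 649 in 6 goggled eyes at 6 h and of 709, 760 and 841 in 6 at 3 d. Every goggled eye at 3 d was above every goggled eye at 6 h, and the log2 difference was 0.35 (SE 0.065, limma adjusted p = 0.00154). NDUFV2, an iron-sulphur subunit of the NADH-binding module, rose from 687 ± 89.6 (SD, n = 6) to 925 ± 101 (log2 0.42, limma adjusted p = 0.014), again without overlap. The other tested core subunits were not called: the log2 differences were 0.36 for NDUFS3, 0.27 for NDUFS7, 0.22 for NDUFS8 and 0.18 for NDUFV1, with limma adjusted p-values of 0.519, 0.0713, 0.168 and 0.419.

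The other 7 complex I genes that rose encode accessory subunits. NDUFB9, a subunit of the membrane arm, went from a lowest, median and highest signal of 1015, 1062 and 1239 to 1323, 1526 and 1796 (log2 0.47, SE 0.089, limma adjusted p = 0.00171). NDUFB5, of the same arm, went from 1473, 1616 and 1733 to 1925, 2052 and 2408 (log2 0.38, SE 0.076, limma adjusted p = 0.0028). Neither gene showed any overlap between the goggled groups. NDUFA1 had the highest log2 difference of the 77 genes, 0.52 (SE 0.149, limma adjusted p = 0.025), with means of 1115 ± 127 and 1605 ± 209. NDUFA7, NDUFB10 and NDUFB4 rose by log2 0.32 to 0.37 without overlap, and NDUFA8 rose by 0.36 with overlapping groups. Apart from the 9, complex I included NDUFB1, which was higher without overlap (log2 0.31) but missed the threshold at a limma adjusted p of 0.0721.

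The remaining electron transfer complexes were higher at 3 d with few single calls. The complex II genes SDHA, the flavoprotein that oxidises succinate, and SDHD, a membrane anchor, had log2 differences of 0.10 and 0.16 in goggled eyes, neither called by limma (adjusted p = 0.495 and 0.293). In complex III, 6 of 8 genes were higher and none was called. UQCRC1, a core protein, and UQCRQ, a small subunit, differed without overlap, by log2 0.15 and 0.35, with limma adjusted p-values of 0.149 and 0.0641. All 7 tested genes of complex IV, cytochrome c oxidase, were higher, with a median of 0.32. COX6C rose from 2957 ± 174 (SD, n = 6) to 3695 ± 382 (log2 0.32, limma adjusted p = 0.0319). NDUFA4, first assigned to complex I and now counted with complex IV, rose from 2869 ± 60.5 to 3669 ± 372 (log2 0.35, limma adjusted p = 0.0438). COX6A1 was higher without overlap but missed the threshold (log2 0.30, limma adjusted p = 0.0551). COX4I1, the largest subunit encoded in the nucleus, differed by 0.21 and was not called (limma adjusted p = 0.1).

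In complex V, 10 of 13 genes were higher in goggled eyes at 3 d, 3 rose and 1 fell. ATP5PB, the b subunit of the peripheral stalk, had a lowest, median and highest signal of 2313, 2440 and 2562 at 6 h and of 2820, 3244 and 3689 at 3 d (log2 0.40, SE 0.084, limma adjusted p = 0.00392). Its groups did not overlap. The 3 ATP5G genes encode the same mature c subunit of the membrane rotor. ATP5G1 rose from a lowest, median and highest signal of 1743, 1985 and 2091 to 2408, 2560 and 3229 (log2 0.45, SE 0.098, limma adjusted p = 0.00488). ATP5G3 rose from 2280 ± 123 to 2741 ± 191 (log2 0.26, limma adjusted p = 0.0171). ATP5G2 passed the threshold in the lower direction, from 16.8, 32.3 and 38.1 to 8.90, 19.3 and 23.9 (log2 -0.45, SE 0.148, limma adjusted p = 0.0464). Its groups overlapped, and its 3 d mean of 17.6 lay within the array background, so the size of the difference is not measured on that side. The catalytic head was not called in goggled eyes: the log2 difference was 0.32 for ATP5B, the beta subunit, and 0.18 for ATP5F1AZ, the alpha subunit (limma adjusted p = 0.0569 and 0.531).

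The 14 assembly factors and related genes were mixed in goggled eyes, with 10 higher, 4 lower and a median of 0.10. SDHAF2, which attaches the flavin cofactor to SDHA, rose from a lowest, median and highest signal of 183, 206 and 230 to 243, 297 and 372 (log2 0.49, SE 0.119, limma adjusted p = 0.00959), without overlap. NDUFAF4, a complex I assembly factor, fell from 163, 202 and 275 to 120, 138 and 201 (log2 -0.46, SE 0.138, limma adjusted p = 0.03), with overlapping groups. NDUFAF6, another complex I factor, stood at a log2 difference of -0.37 and missed the threshold (limma adjusted p = 0.0511).

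Across all 77 genes, 18 were higher at 3 d in goggled eyes without any overlap between the groups and none was lower in that way, where 2.48% and 3.62% of all tested probe sets did so. The background depends on signal, and shares without overlap, here and below, were not computed for the bright probe sets alone. ATP5PB, NDUFB5, NDUFB9 and SDHAF2 stayed called in all 24 other settings tried, and NDUFS1, NDUFV2 and ATP5G1 in 23. ATP5G3 stayed called in 22, NDUFA1 in 20, COX6C in 19, NDUFA8 in 14, NDUFA7 and NDUFAF4 in 13, NDUFB10 in 12, and NDUFB4 and NDUFA4 in 10. ATP5G2 stayed called in 6 of 23. The count of genes that rose was 8 without 3 d goggled replicate 4, 9 without 6 h goggled replicate 5 and 7 without the 6 h goggled replicates 5 and 6, whose striated muscle sums of 807 and 2511 were the highest of their group. Another high sum, 1081, was in 3 d goggled replicate 3. With quantile-normalized signals it was 9, and with median-centred signals 30. The count of genes that fell was 0 under both scalings and without the 3 arrays high in choroid markers.

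**Figure D2:**
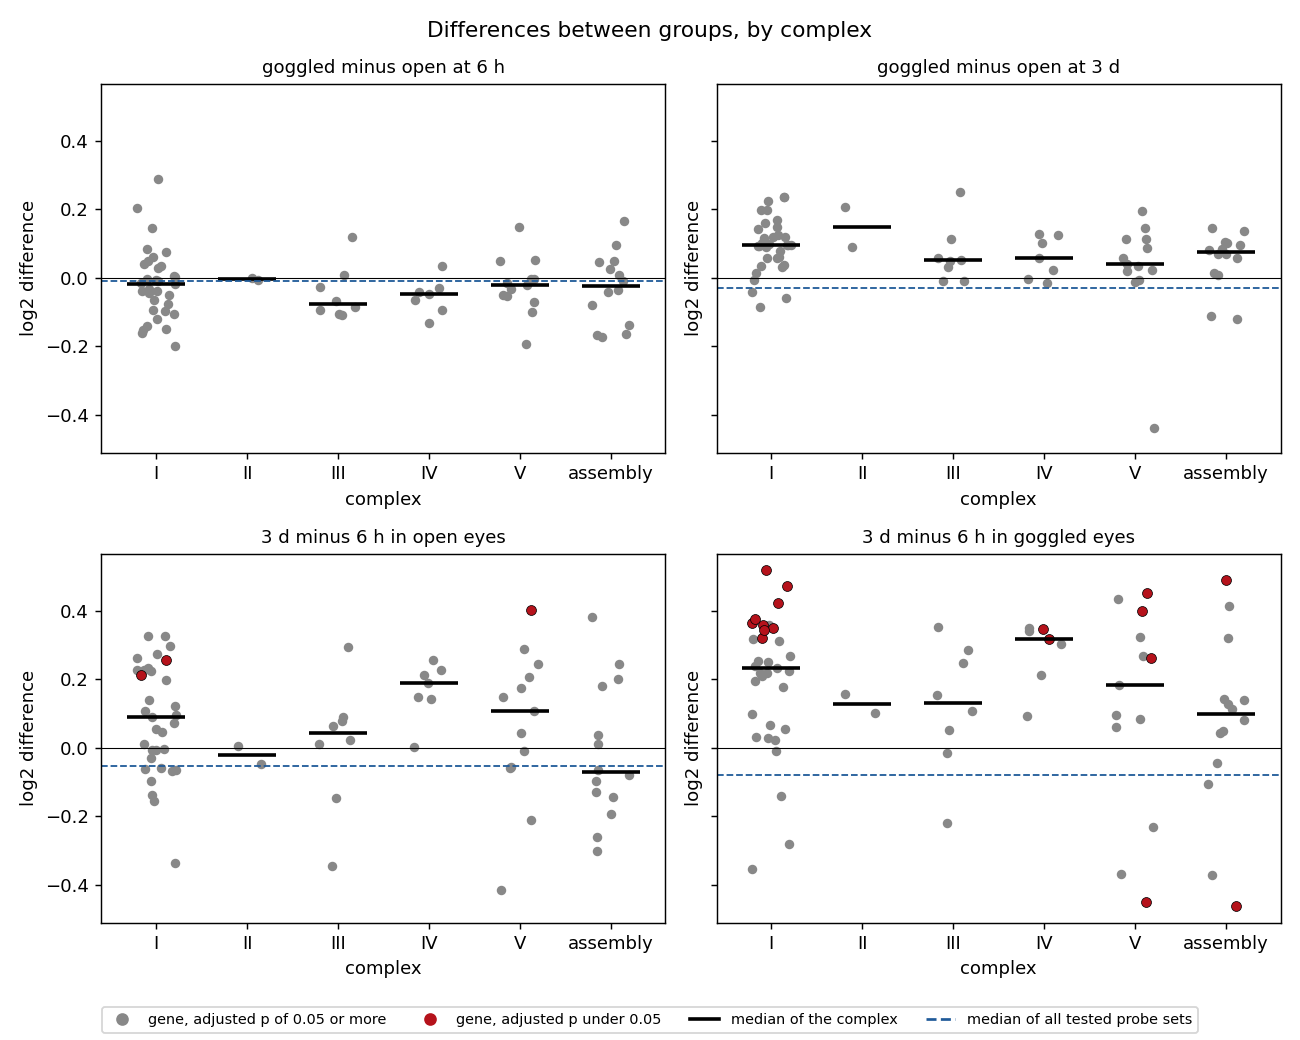
Each point is the log2 difference of 1 gene between group means (vertical axis), placed by complex (horizontal axis), for goggled minus open eyes at 6 h and 3 d (top) and 3 d minus 6 h in open and goggled eyes (bottom). Red marks an adjusted p under 0.05, black bars are the medians of the complexes and the dashed line is the median of all tested probe sets. Red points appear only in the lower panels, 3 in open and 17 in goggled eyes.

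In open eyes the differences between the times had a lower median. Of the 77 genes 49 were higher at 3 d, with a median of 0.06. The median was -0.05 over all tested probe sets, 41.1% of them higher, and 0.04 over the bright ones, 58.2% of them higher. In the limma fit 3 genes rose, against 2.62% of all tested probe sets called higher, and none fell, against 4.72% called lower. Of the bright probe sets 6.39% were called higher and 3.57% lower. An unadjusted p under 0.05 was reached by 17 of the 77 genes and by 23% of all tested probe sets. Over all probe sets 35.7% of the calls were higher, 47.7% after quantile normalization and 65.8% after median centring. ATP5G1 rose from a lowest, median and highest signal of 1574, 2108 and 2220.9 to 2221.4, 2651 and 2987 (log2 0.40, SE 0.098, limma adjusted p = 0.0149). NDUFS1 rose from 586, 620 and 654 to 685, 729 and 749 (log2 0.21, SE 0.065, limma adjusted p = 0.0454). The open groups did not overlap for either gene, as for 1.41% of all tested probe sets. NDUFB5 rose from 1440, 1528 and 1858 to 1800, 1876 and 2000 (log2 0.26, SE 0.076, limma adjusted p = 0.0394) and its groups overlapped. Of 23 other settings ATP5G1 stayed called in 21, NDUFB5 in 11 and NDUFS1 in 7.

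By complex, the open eyes had medians of 0.09 for complex I, 0.04 for complex III, 0.19 for complex IV and 0.11 for complex V, and -0.07 for the assembly factors. All 7 tested complex IV genes were again on the higher side at 3 d, with log2 differences from 0.001 to 0.26, and none was called. With only the 12 open arrays in the fit no gene was called, and without the 3 arrays high in choroid markers or after quantile normalization 1 was, ATP5G1 in both cases. The difference between the changes in goggled and open eyes is the interaction of goggle and time, and no gene was called for it (0% of all tested probe sets in either direction). The interaction uses the same 24 arrays. In it, 66 of 77 genes had the more positive value in goggled eyes, with a median of 0.11. The median was -0.02 over all tested probe sets, 45.6% of them positive, and 0.02 over the bright ones, 57.7% of them positive. NDUFB6 was the 1 gene with an unadjusted p under 0.05 (log2 0.38, limma adjusted p = 1), a level that 2.22% of all tested probe sets reached. The fit with the chick as a block called none either. NDUFB6, a subunit of the membrane arm of complex I, was lower in goggled eyes at 6 h (log2 -0.14) and higher at 3 d.

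**Figure D3:**
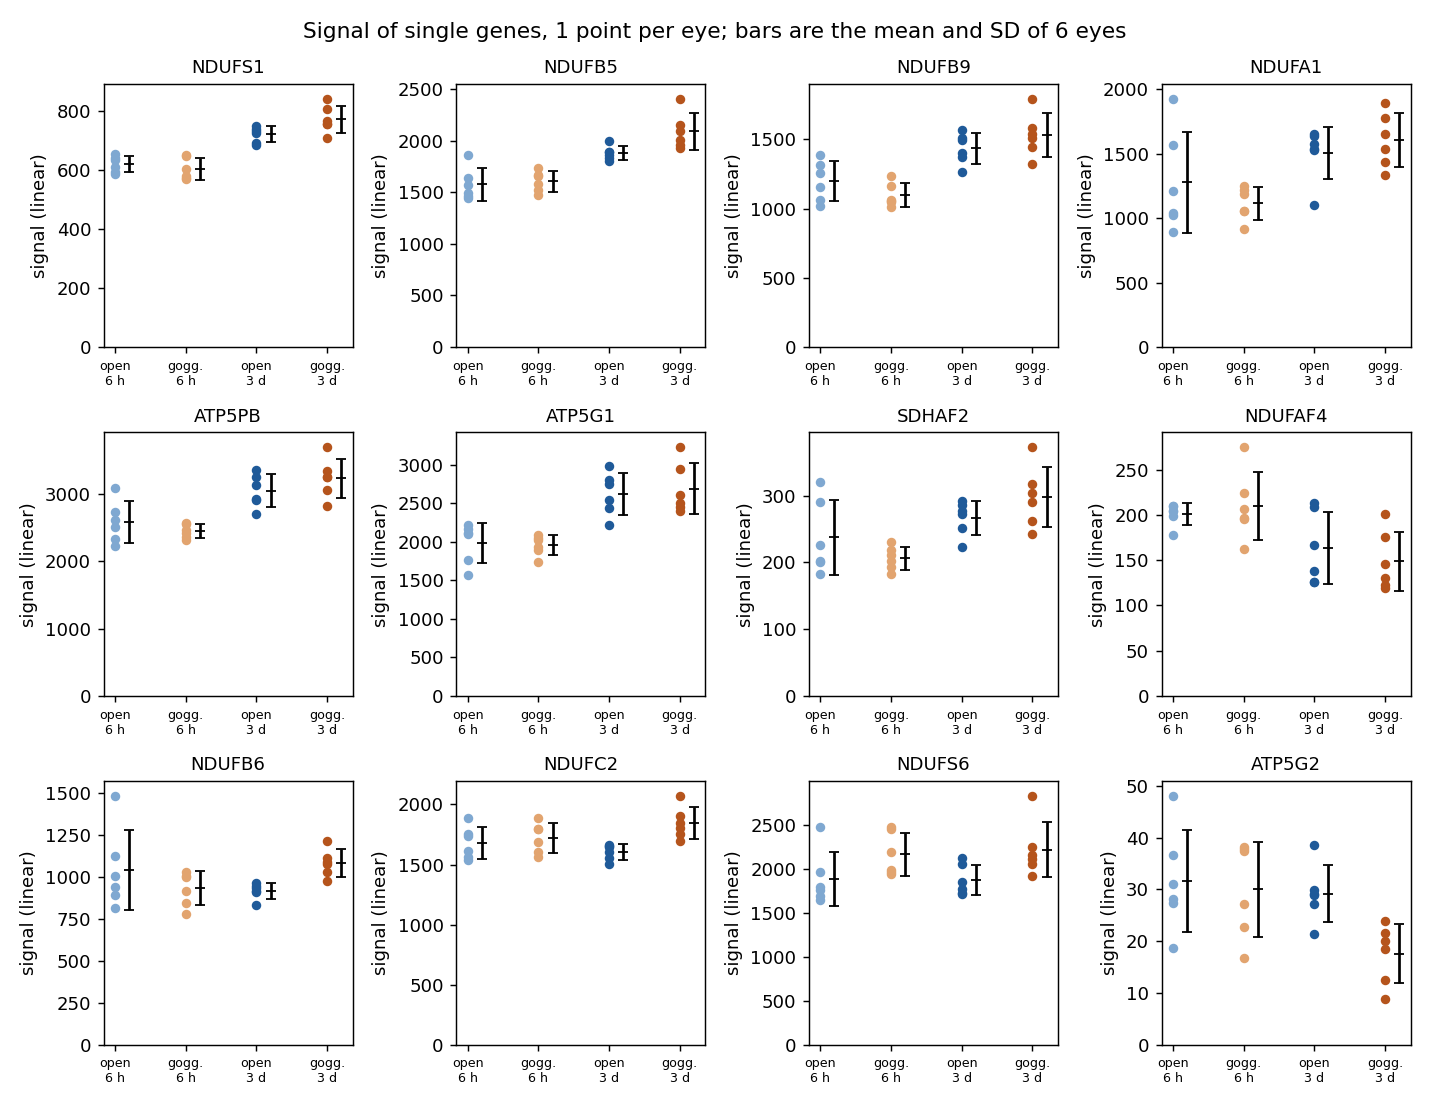
Signal (vertical axis, linear, from 0) of 12 genes in the 4 groups (horizontal axis), with 1 point per eye and bars for the mean and SD of 6 eyes. NDUFS1, NDUFB5, NDUFB9, ATP5PB and ATP5G1 are higher in both groups at 3 d, ATP5G2 is lowest in goggled eyes at 3 d, and NDUFB6 and NDUFC2 separate the goggled from the open eyes at 3 d.

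After 3 d of goggle wear, no oxidative phosphorylation gene was called between goggled and open eyes. The background for that comparison was 0% of all tested probe sets called higher and 0.00743% called lower. Of the 77 genes, 64 had the higher mean in goggled eyes, with a median log2 difference of 0.08. The median was -0.03 over all tested probe sets, 41.5% of them higher, and 0.02 over the bright ones, 59.4% of them higher. At an unadjusted p under 0.05 there were 7 of 77 genes, 6 of them higher, and 8 in the fit with the chick as a block, which also called none. Over all tested probe sets the shares were 5.38% and 8.88%. The medians were 0.10 for complex I, 0.15 for complex II, 0.05 for complex III, 0.06 for complex IV, 0.04 for complex V and 0.07 for the assembly factors.

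Only 2 genes separated the eyes at 3 d, NDUFB6 and NDUFC2, and neither was called. Both encode subunits of the membrane arm of complex I. Other genes of that arm, such as NDUFB4, did not separate the eyes, and the arms were not compared. NDUFB6 had a lowest, median and highest signal of 833, 924 and 963 in open and of 975, 1083 and 1214 in goggled eyes (log2 0.24, SE 0.109, limma adjusted p = 0.923). NDUFC2 went from 1502, 1624 and 1664 to 1695, 1826 and 2069 (log2 0.20, SE 0.073, limma adjusted p = 0.799). For both genes every goggled eye was above every open eye, a pattern that 0.0595% of all tested probe sets showed. NDUFA11, an accessory subunit at the base of that arm, went from 1471, 1687 and 1767 to 1765, 1977 and 2147 (log2 0.23, limma adjusted p = 0.776), and its ranges overlapped only at their ends. Its other tested probe set, with a mean signal of 49.7, had a log2 difference of -0.33.

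NDUFS6, a zinc-binding accessory subunit, had a similar difference between the eyes at both times. Its lowest, median and highest signals were 1649, 1776 and 2481 in open and 1945, 2094 and 2475 in goggled eyes at 6 h. At 3 d they were 1718, 1811 and 2125 in open and 1921, 2137 and 2830 in goggled eyes. The goggled eye was higher in 5 of 6 chicks at each time, with log2 differences of 0.20 and 0.24 and of 0.22 over both times (limma adjusted p = 0.765). A second, cross-matching probe set of NDUFS6, with a mean signal of 1725, had a log2 difference of 0.18 at 3 d. UQCR10, a small subunit of complex III, was higher in 10 of 12 goggled eyes than in the fellow eye, with log2 differences of 0.12 at 6 h and 0.25 at 3 d. Another probe set of UQCR10, with a mean signal of 812, gave -0.08 and 0.15. In the opposite direction ATP5G2 was lower in all 6 goggled eyes at 3 d (log2 -0.44, SE 0.148, limma adjusted p = 0.758, and 0.354 with the chick as a block). Its mean in those goggled eyes, 17.6, lay within the array background.

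Chick by chick, 9 genes were higher in the goggled eye of all 6 chicks at 3 d, where 1.76% of all tested probe sets were. They were NDUFS1, NDUFA7, NDUFA11, NDUFB5, NDUFB6, NDUFC2, NDUFAF1, SDHAF3 and ATP5G3. NDUFAF4 and ATP5G2 were lower in all 6, as were 3.21% of all tested probe sets. The other tested probe sets of NDUFAF4, with mean signals of 62.5, 26.0 and 18.3, were higher in goggled eyes at 3 d, by log2 0.39, 0.05 and 0.20. The mean over the 77 genes was higher in the goggled eye of chicks 1, 2, 4 and 5, by 0.12, 0.19, 0.14 and 0.05 on the log2 scale, and lower in chicks 3 and 6, by -0.05 and -0.02. For chicks 1 to 6 in order, the mean over all tested probe sets differed by -0.01, -0.07, 0.03, -0.08, -0.03 and -0.08. In chicks 2 and 4 the eyes differed in 68 and 67 genes in the same, higher, direction. Those chicks held arrays that stood apart: 3 d open replicate 2, high in choroid markers, and 3 d goggled replicate 4, with the highest actin 3′/5′ ratio, 5.05, and the lowest median signal, 30.1. Chick 3, with a lower mean in the goggled eye, held 3 d goggled replicate 3. That array was the highest in choroid and blood markers, at 6181 and 10958. Chick 1 had 65 genes higher in the goggled eye and chick 6 had 35, and neither held any of the 3 arrays high in choroid markers. The part of marker content and RNA quality in the result was not tested. Without 3 d goggled replicate 4 the median was 0.05, as it was without 3 d open replicate 2, and 56 genes were higher in each case. Without 3 d goggled replicate 3, 68 genes were higher, and without both eyes of chick 3, 69 were.

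After 6 h, no oxidative phosphorylation gene was called between goggled and open eyes. Of the 77 genes 25 were higher and 52 lower in goggled eyes, with a median log2 difference of -0.03. The median was -0.01 over all tested probe sets, 46.4% of them higher, and 0.002 over the bright ones, 51.0% of them higher. By limma 0% of all tested probe sets were called in either direction. None had an unadjusted p under 0.05, and 2 had in the fit with the chick as a block, where 2.37% and 4.59% of all tested probe sets did. The mean over the genes moved up in chicks 2 and 6, by 0.11 and 0.10, and down in the other 4, by -0.13, -0.17, -0.02 and -0.04. For chicks 1 to 6 in order, the mean over all tested probe sets moved by 0.02, -0.04, 0.01, -0.006, 0.002 and -0.05. Without both eyes of chick 3 the count of genes higher was 40, after median centring it was 36 and after quantile normalization 23. The genes with the lowest p-values were NDUFS5 (log2 0.29), NDUFS6 (0.20), NDUFS7 (-0.16), NDUFB2 (-0.20) and NDUFAF8 (-0.17), each with a limma adjusted p of 1. NDUFAB1, the mitochondrial acyl carrier protein, was higher in the goggled eye of all 6 chicks at 6 h, as were 1.5% of all tested probe sets, and of 5 at 3 d, with log2 differences of 0.08 and 0.06. Over both times no gene was called in either direction, where 0% and 0.00743% of all tested probe sets were. In the limma fit 5 of 77 genes had an unadjusted p under 0.05, as did 6.03% of all tested probe sets.

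**Figure D4:**
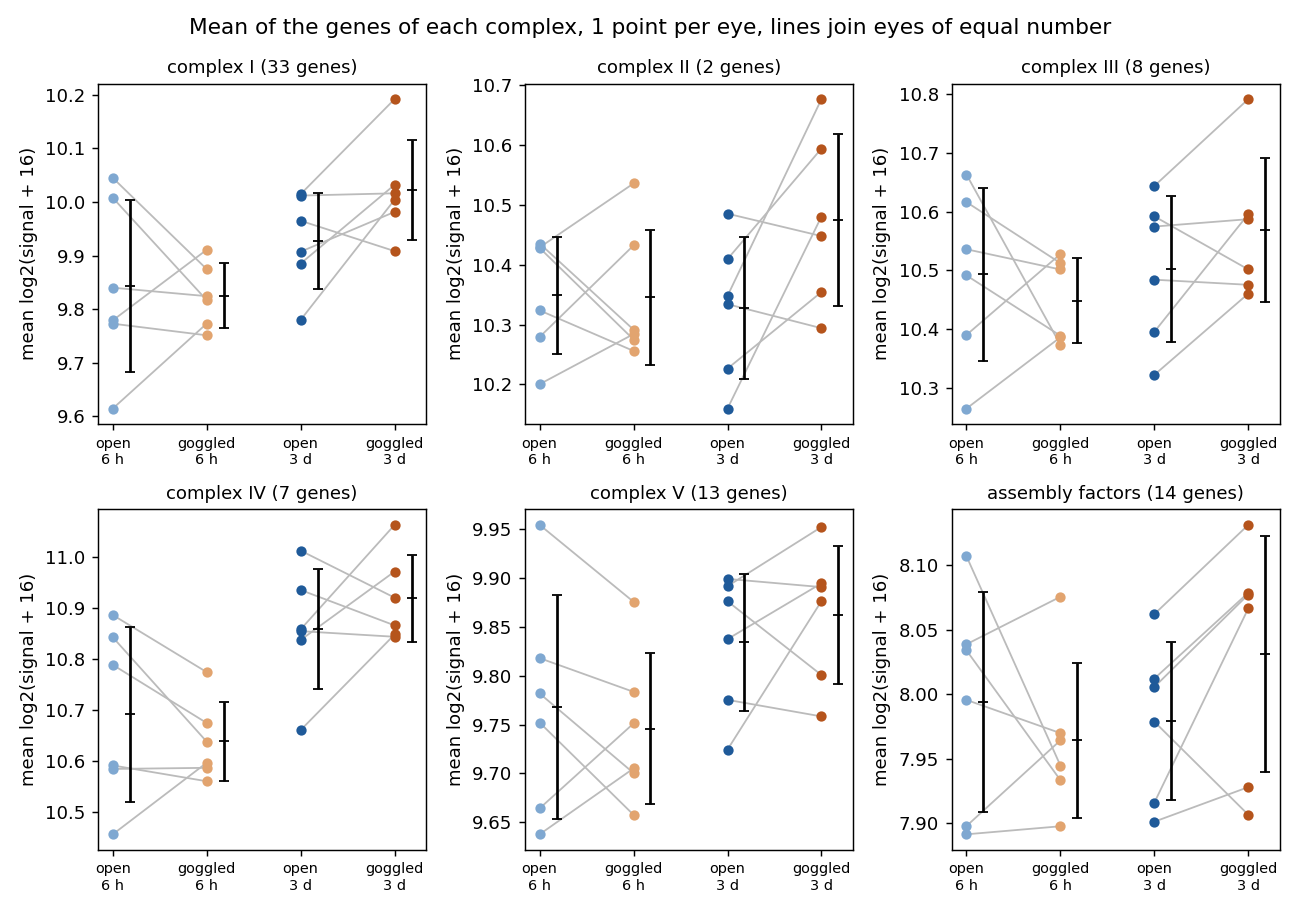
Mean of log2(signal + 16) over the genes of each complex (vertical axis, not starting at 0) in each eye, by group (horizontal axis), with grey lines joining the eyes of equal number and bars for the mean and SD of 6 eyes. At 3 d most lines of complex I rise from the open to the goggled eye, at 6 h they run both ways, and complex IV is higher at 3 d in both eyes.

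The eyes of a chick resembled each other closely in these genes. Over the 77 genes, the deviations from the group mean of open and goggled eyes of equal number correlated at 0.403 to 0.763 at 6 h and 0.542 to 0.796 at 3 d. Eyes of different chicks gave means of -0.113 and -0.134. Taking deviations from the group mean pushes such values to the negative side, so they do not measure how far different chicks diverge. Over all tested probe sets the same correlations were 0.222 to 0.424 and 0.101 to 0.444. These are correlations across genes, which are not independent replicates.

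A set of genes differed far more between chicks than between the eyes of a chick. The SD of the chick means exceeded 3 times the SD between fellow eyes for 10 of 77 genes, as it did for 4.09% of all tested probe sets. The bound, and with it these genes, was chosen after the values were seen. The genes were NDUFS3, NDUFS4, SDHAF4, ATP5F1AZ, COX7C, ATP5J2, ATP5I, NDUFAB1, NDUFAF6 and NDUFAF2. Of these ATP5F1AZ is the copy of the ATP synthase alpha subunit on chromosome Z, the sex chromosome that male birds carry as a pair and females singly. NDUFS4, an accessory subunit of complex I, COX7C, of complex IV, ATP5I, the e subunit of complex V, and NDUFAF2, a complex I assembly factor, are Z-linked in the chicken too.

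The Z-linked genes picked out the same chicks in both eyes. ATP5F1AZ had its highest signals in chicks 1 and 4 at 6 h, from 2476 to 2878 over their 4 eyes, and 1573 to 1867 in the other 8 eyes. At 3 d it was highest in chicks 1 and 5, at 2588 to 3120 against 1764 to 2089. NDUFS4 gave 1043 to 1251 in chicks 1 and 4 at 6 h, with 523 to 694 in the other chicks, and 819 to 1007 in chicks 1 and 5 at 3 d, with 383 to 531 in the others. COX7C, at 2838 to 3718 against 1697 to 2227 at 6 h, and ATP5I and NDUFAF2 likewise had separate ranges at both times, with the same 4 chicks at the top. HINTW, a gene of the female-specific W chromosome and no member of the pathway, had signals of 5.30 to 249 in both eyes of exactly these 4 chicks and of 5353 to 7615 in the other 8. Each of the 4 groups thus held 2 eyes low and 4 eyes high in HINTW. In goggled eyes ATP5I had 3592 ± 850 at 6 h and 4798 ± 805 at 3 d, a log2 difference of 0.43 that was not called (limma adjusted p = 0.153). The part of the spread between chicks in that outcome was not tested, and no fit included HINTW.

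**Figure D5:**
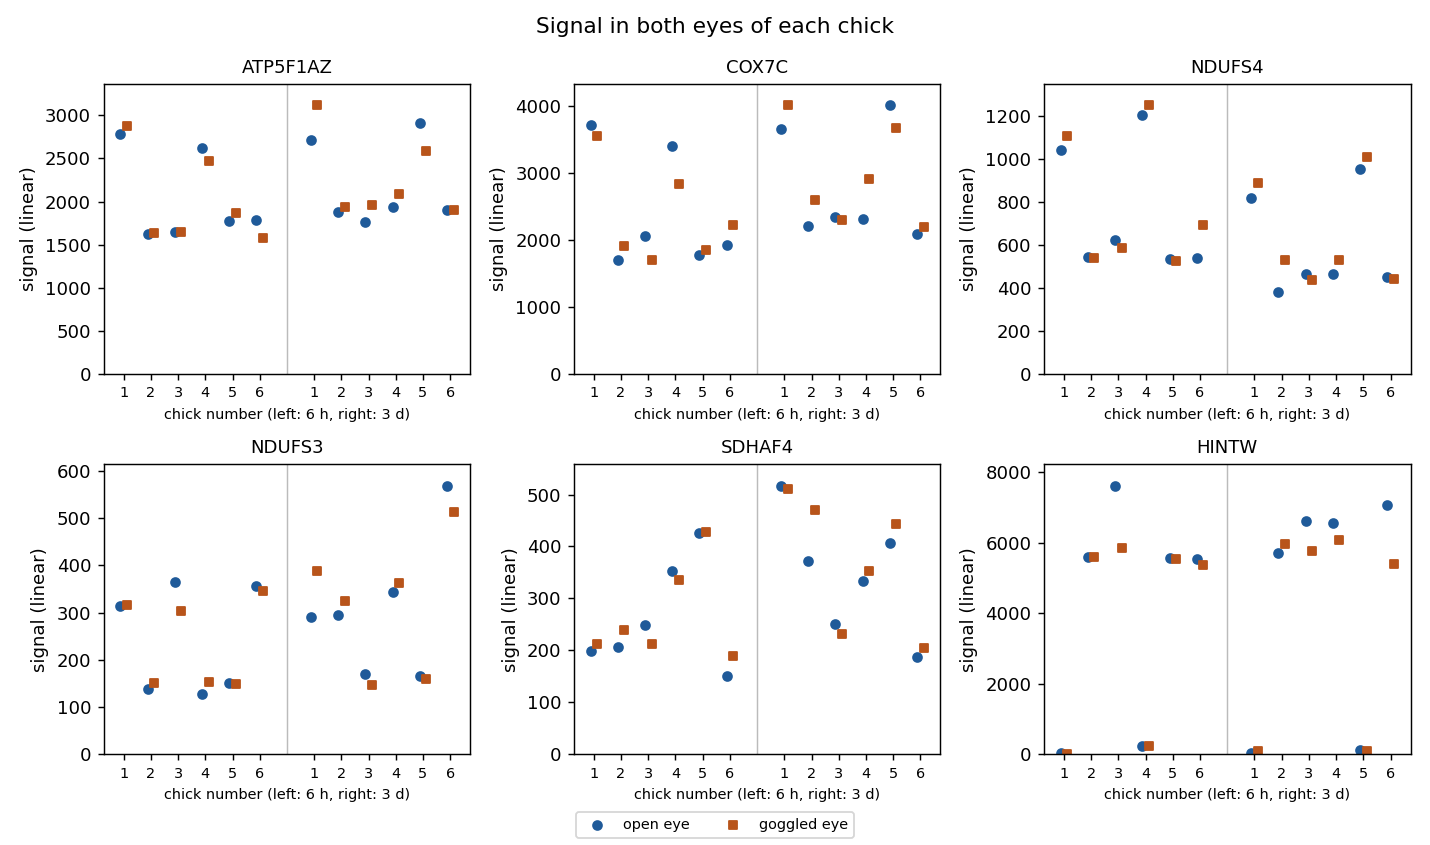
Signal (vertical axis, linear, from 0) in the open eye (blue circle) and goggled eye (orange square) of each chick (horizontal axis, 6 at 6 h on the left and 6 at 3 d on the right) for 5 oxidative phosphorylation genes and HINTW. ATP5F1AZ, COX7C and NDUFS4 are high in chicks 1 and 4 at 6 h and 1 and 5 at 3 d, where HINTW is near 0. NDUFS3 is highest in other chicks. SDHAF4 is highest in chicks 4 and 5 at 6 h and in chicks 1 and 5 at 3 d.

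Large chick differences were also seen in NDUFS3, a core subunit of complex I, and in SDHAF4, a complex II assembly factor. NDUFS3 had an SD of 0.63 on the log2 scale between chicks and of 0.09 for the deviation of an eye from its chick's mean. Its signal was 128 and 152 in the eyes of chick 4 at 6 h and 569 and 513 in those of chick 6 at 3 d. SDHAF4 ranged from 151 and 189 in chick 6 to 426 and 428 in chick 5 at 6 h, and from 188 and 204 in chick 6 to 517 and 511 in chick 1 at 3 d. The order of NDUFS3 did not follow HINTW at either time. The highest chicks for SDHAF4 were 4 and 5 at 6 h, and at 3 d they were 1 and 5, the chicks low in HINTW, though its ranges overlapped there, at 407 to 517 against 188 to 470.2.

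Within groups, the subunit genes varied together from eye to eye. The mean pairwise correlation of the deviations from the group mean over 24 arrays was 0.255 for the 63 subunits and 0.0119 for all tested probe sets. It was 0.448 among complex III genes, 0.268 among complex I, 0.239 among complex IV, 0.0998 among complex V and 0.0175 among the assembly factors. All genes of an array share its scaling, so these values are a description. NDUFA12, ATP5O and NDUFB1 followed the mean of the other genes most closely, at 0.935, 0.897 and 0.893, and 43 of 77 genes correlated above 0.5. There were 12 genes below 0, among them ATP5B (-0.416), NDUFAB1 (-0.487), SDHAF1 (-0.494) and ATP5G2 (-0.551). The mean of the 77 genes was lowest in 6 h open replicate 2, at 9.46, and highest in 3 d goggled replicate 4, at 9.92.

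Of the 77 genes, 35 had 51 further tested probe sets, and these often went their own way. In goggled eyes 26 of the 51 shared the sign of the gene's brightest probe set between 3 d and 6 h. Further probe sets of NDUFB3, SDHAF2, UQCRC1 and ATP5O were called higher, and those of NDUFB8 and UQCRB lower. With all tested probe sets of a gene averaged, 10 genes rose, UQCRC1 among them, and UQCRB and ATP5G2 fell. NDUFS1, NDUFV2, NDUFA7, NDUFB4, COX6C, ATP5G1 and NDUFAF4 were no longer called. Their log2 differences were then 0.27, 0.11, 0.04, 0.06, 0.06, 0.08 and -0.27. The further probe sets of NDUFV2 and ATP5G1 had mean signals of 21.1 and 55.7. Brighter ones of NDUFA7 and COX6C, at 364 and 178, had log2 differences of -0.23 and -0.20. Those of NDUFS1, at 608 and 173, had 0.44 and 0.04. Of 13 further tested probe sets of the called genes, 8 shared the sign and 1 was called too. NDUFB9, NDUFB5 and ATP5PB had a single probe set each.

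Genes around the pathway were called in both directions, and the rate of calls was not compared between lists. The background shares are those given for all tested probe sets, 4.13% higher and 8.56% lower in goggled eyes and 2.62% and 4.72% in open eyes. Of 18 tested genes of the tricarboxylic acid cycle and pyruvate dehydrogenase, IDH3A (log2 0.33) and PDHB (0.39) rose and PDK1, a kinase that inhibits pyruvate dehydrogenase, fell (-0.24) between 6 h and 3 d in goggled eyes, and DLST rose in open eyes (0.30). Of 12 carriers and exchangers, SLC25A12, the mitochondrial aspartate-glutamate carrier, rose in open eyes (log2 0.42) and in goggled eyes (0.56), and SLC25A5, an ADP/ATP carrier, rose in goggled eyes (0.37). The 64 tested mitochondrial ribosomal genes had 6 that rose and 2 that fell in goggled eyes, with a median of 0.14. In open eyes MRPL20 rose (0.45) and MRPS6 fell (-0.56). Between the eyes at 3 d, 50 of the 64 were higher on the goggled side and none was called. Of 15 genes of mitochondrial biogenesis, TFAM, the packaging factor of mitochondrial DNA, rose in goggled eyes (log2 0.24) and POLG, the mitochondrial DNA polymerase, in open eyes (0.50). Among 9 antioxidant genes, GPX1 (0.43) and GPX4 (0.30), which reduce peroxides, rose in goggled eyes. Among 24 assembly factors outside the naming rule, TMEM70, which assists the ATP synthase, fell in open and goggled eyes (log2 -0.32 in each), and none rose. Among 15 electron carrier and entry genes, COQ9 rose (0.47) and PDSS2 fell (-0.40) in goggled eyes, both of ubiquinone synthesis, and ETFA, which passes electrons from fatty acid oxidation to the chain, rose in open eyes (0.57).

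Markers of several cell types differed between the times, with few calls. Of 19 tested rod and cone markers, 12 were higher in goggled eyes at 3 d than at 6 h, with a median of 0.18, and GUCA1A, PDC and PDE6C rose while GNGT2 fell. In open eyes 14 were higher, with a median of 0.25 and the same 3 genes called. Of 14 pigment epithelium markers 10 were higher in goggled and 11 in open eyes, with medians of 0.25 and 0.23 and none called. Of 10 Mueller glia markers 6 were higher in goggled and 7 in open eyes. CRABP1 and SLC1A3 rose in goggled eyes, and AQP4 fell in both. Of 19 amacrine, bipolar and ganglion cell markers 8 were higher in goggled and 14 in open eyes. SNCG and TRPM1 rose in both, and TFAP2A fell in goggled eyes. Striated muscle markers were lower in 7 of 8 cases in goggled eyes (median -0.48) and blood markers in 5 of 6 (median -0.28), and none was called. Between the eyes at 3 d, 14 of the 19 rod and cone markers were lower on the goggled side, with a median of -0.13, where the oxidative phosphorylation genes had 0.08. Of the amacrine, bipolar and ganglion cell markers 15 were lower, with a median of -0.08. VIP among them was called lower, as were 0.00743% of all tested probe sets. Of the Mueller glia markers 7 were lower, with a median of -0.06, and of the 14 pigment epithelium markers 10, with -0.07. Other lists ran higher on the goggled side or both ways, with none called. Striated muscle markers were higher in 7 of 8 cases (median 0.24), choroid, sclera and vessel markers in 9 of 17 (0.02) and blood markers in 4 of 6 (0.04). The summed signal of the rod and cone list ranged from 32973 to 44228 in goggled eyes at 6 h and from 35614 to 48338 at 3 d, and no marker was at 0 in every array. The part of the tissue's cell makeup in the results on oxidative phosphorylation was not tested.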

How the data were processed

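Retina with pigment epithelium from 24 eyes of 12 chicks was measured on Affymetrix chicken arrays, which were scanned with GCOS version 1.4, per the labels. The authors deposited 1 signal intensity per probe set and array, on a linear scale and already brought to a common trimmed mean. The submitters' processing notes name GCOS and RMA without a role, and the step that made the intensities is not given in the sources used. Array number limits the precision, and no read depth applies.

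From these values 96 control probe sets were left out and log2(signal + 16) was taken, so fold changes of dim genes are understated. Probe sets with a mean signal under 14.4, the 30th percentile, were not tested. Gene symbols came from the platform annotation, where 27168 probe sets had 1 gene, 177 had several and 11094 had none. No current symbol of the 78 genes differed in the RefSeq table of GRCg7b.

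The 4 group means were fitted together over the 24 arrays by limma (version 3.58.1 under R 4.3.3, lmFit and eBayes, 20 residual degrees of freedom), and p-values were adjusted by Benjamini-Hochberg over 26913 probe sets. A gene was called at an adjusted p under 0.05. The 4 comparisons of 2 groups, their mean over both times and the interaction share arrays. Sample titles mark the eyes with the letters C and E and a number, read here, with the series' design text, as control (open) and experimental (goggled). The labels state that both eyes of each chick were used but not that equal numbers share a chick. Over all tested probe sets, deviations from the group mean of equal numbers correlated at 0.222 to 0.424 at 6 h and at 0.101 to 0.444 at 3 d, so the numbers were taken to pair the eyes and the chick was also fitted as a block, with 10 residual degrees of freedom. The fit was tested on simulated data with independent noise, without the correlation of fellow eyes or of genes that these data have.

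The genes and gene lists were chosen with earlier results of these data known. The rule for naming genes covered those called in any fit of the 24 arrays and the 3 highest and 3 lowest moderated statistics of each comparison. It also covered genes of equal sign in all 12 chicks, genes of the catalytic cores, paralogues, and the brightest and dimmest gene of each complex. Not all were reported: no values are given for ATP5H, COX5A, COX7A2L, NDUFA2, NDUFA10, NDUFA13, NDUFB8, NDUFAF1, UQCRB, UQCR11 and UQCRFS1. COX7B was called between the times in open eyes when no filter was used. NDUFS3, NDUFS4, NDUFAB1, NDUFB3, NDUFAF2, SDHAF3, SDHAF4, COX7C, ATP5O, ATP5J2 and HINTW were named after their values were seen. The list of background reporters gave a 95th percentile of 22.8, used as the top of the array background. Figures were drawn with matplotlib 3.10.9.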

Additional observations from a re-analysis of the deposited data

Results flagged for a closer look

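In 8 of 152 groups of 6 eyes examined, 1 eye lay far from the other 5, where chance gives such a flag in about 1 in 20 groups, 7.6 in all. In 3 d goggled eyes, replicate 4 was high for COX6C, at 4452.2 with the others at 3419.8 to 3671.1, for NDUFA4, at 4407.6 with the others at 3430.7 to 3678.8, and for NDUFS6, at 2829.6 with the others at 1920.8 to 2251.8. That array also had the lowest median signal of the 24, 30.1, and the highest actin 3′/5′ ratio, 5.05, while its GAPDH ratio was 0.94. In 3 d open eyes, replicate 2, an array high in choroid markers, was low for NDUFA1, at 1102.7 with the others at 1529.9 to 1655.3. In 6 h goggled eyes, replicate 5 was low for COX6C, at 2618.6 with the others at 2939.3 to 3089.9. In 6 h open eyes, replicate 1 was high for NDUFA8, at 1087.8 with the others at 699.8 to 804.6. In the same group replicate 4 was low for NDUFAF4, at 177.4 with the others at 198.6 to 210.1, and replicate 3 was high for NDUFAF8, at 248 with the others at 130.1 to 163.8. The part of RNA quality and marker content in these values was not tested.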

How the results depend on the processing

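Of the repeated values for single genes under other settings, 1363 kept their direction and their side of the threshold, 133 lost the call, 7 gained one and 5 changed sign. Of the counts and medians, 1154 stayed within the spread or within 1.5 times and 70 moved. The cause of these changes was not tested.

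With the chick as a fixed replicate block, goggled and open eyes again gave 0 called genes of the pathway at either time, over both times and for the interaction. Chicks were nested in time, so no such block was possible between 6 h and 3 d. As a random replicate block (consensus correlation 0.263), 4 probe sets were lower at 3 d, and 2 were higher and 9 lower over both times. Quantile normalization gave 1 lower at 3 d. Over both times 1 probe set was higher with quantile normalization, an offset of 64, trended robust variances or a filter at the 50th percentile, where 5 were lower, and 4 were lower without the 3 arrays high in choroid markers.

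In open eyes, the number of pathway genes that rose between 6 h and 3 d was 5 with an offset of 64 or trended variances, 1 with quantile normalization, with all probe sets of a gene averaged or without the choroid arrays, and 0 with only the 12 arrays compared. Averaging gave 2 that fell. Over all probe sets the counts were 1381 higher and 719 lower with median centring, 249 and 646 with the 12 arrays, and 379 and 719 without the choroid arrays.

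In goggled eyes, 9 pathway genes rose with quantile normalization, 30 with centring and 7 without the 2 muscle-marker arrays. The number that fell was 1 without a filter and 0 with quantile normalization, centring, or without the choroid or muscle arrays. The median of the genes was 0.32 with centring, 0.17 with quantile normalization and 0.11 with probe sets averaged. Over all probe sets 1102 were lower with quantile normalization, 2290 higher and 1100 lower with centring, and 477 and 1061 without the muscle arrays.

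Averaging the probe sets of a gene turned the sign of NDUFAF4 at 3 d (0.13) and in the interaction (0.0753), of NDUFA11 at 3 d (-0.0511) and over both times (-0.0204), and of NDUFB4 over both times (0.0054).

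Leaving out single arrays or chicks gave the following ranges. In goggled eyes, the median was 0.18 to 0.22, with 62 to 66 genes higher, 8 to 15 that rose and 0 to 2 that fell, and 791 to 1004 probe sets higher and 1637 to 2380 lower. In open eyes, the median was 0.03 to 0.09, with 43 to 54 genes higher, 1 to 4 that rose, and 440 to 812 probe sets higher and 825 to 1395 lower. Between the eyes, the median was -0.08 to 0.0068 with 19 to 40 genes higher at 6 h (0 to 1 probe sets lower), 0.05 to 0.10 with 56 to 69 at 3 d (1 to 3 probe sets lower), and -0.0027 to 0.04 with 37 to 60 over both times (0 to 1 probe sets higher, 2 to 6 lower). For the interaction the median was 0.07 to 0.14, with 58 to 69 genes higher. Signals near the array background, as for ATP5G2, limit what can be read from the dim genes.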
